A study of Mus musculus with 11 samples.

Results

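Cdx2 and Cdx1 encode homeodomain transcription factors, and both genes were read here as targets of the factors, and Cdx2 also as a gene deleted in part of the study's mice. The Cdx2 locus was taken as 80 kb of mouse chromosome 5 (build mm9), with Cdx2 near 148.112 to 148.119 Mb and the neighbouring gene Pdx1 on its lower-coordinate side. The Cdx1 locus was taken as 70 kb of chromosome 18, with Cdx1 near 61.178 to 61.196 Mb. All factor peaks and all nucleosomes lying in these stretches were members, the nucleosomes at a score of 52 or more. There were 820 members of 1367761 regions in the 10 lists. The Cdx2 locus held 507 of them (9 factor peaks and 498 nucleosomes) and the Cdx1 locus held 313 (6 factor peaks and 307 nucleosomes).

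The lists came from chromatin immunoprecipitation and sequencing of villus epithelium of mouse jejunum. Epithelium was released with EDTA and villi were kept on a 70 µm filter. Formaldehyde-fixed villi went into chromatin for ChIP, and the labels also describe unfixed villi digested with micrococcal nuclease without tying either to a library. CDX2 was mapped in Hnf4a knockout (1 library) and in wild type (2 libraries), HNF4A in Cdx2 knockout and in wild type (1 library each). H3K4me2, dimethylation of histone H3 at lysine 4, was mapped nucleosome by nucleosome in Cdx2 knockout, in Hnf4a knockout, in 2 double knockouts and in wild type (1 library each). All mice with a strain label were of mixed 129xC57BL6 background, and libraries came from pooled immunoprecipitated DNA. The labels of the double knockouts are at odds with each other. One is titled Cdx2-Cdx1, but its source and description give Hnf4a as the second gene. The other is titled Cdx2-Hnf4a, but its description gives Cdx1. Cdx2 is deleted by every label of both, so 3 H3K4me2 lists lack Cdx2. The 2 double knockouts are named by title, and no difference between them is read as an effect of the second gene. The sources used here do not give the alleles, the driver of deletion, the place of the deleted stretch in each gene, the age of the mice or whether wild-type CDX2 was mapped in separate animals. No list holds CDX2 in a Cdx2 knockout or HNF4A in an Hnf4a knockout, so the deletions could not be checked by the factor's own peaks.

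CDX2 and CDX1 belong to the caudal family and bind AT-rich DNA through a homeodomain. CDX2 sets intestinal identity in the gut endoderm and is kept on in the adult intestinal epithelium, and CDX1 overlaps with it in expression and in DNA binding. Pdx1, the neighbour of Cdx2, encodes another homeodomain factor of the ParaHox cluster, which is needed for the pancreas and is active in the duodenum. HNF4A is a nuclear receptor active in enterocytes. H3K4me2 marks nucleosomes at promoters and enhancers that are active or poised. In the RefSeq gene order for mouse (GRCm38.p6), Pdx1, Mir7k, Gm35112, Cdx2, Urad, Gm29778 and Flt3 follow each other. Around the other gene, Slc6a7, Cdx1, Gm52351, Pdgfrb and Csf1r follow each other. Cdx2 and Cdx1 are both read toward lower coordinates, so the start of each gene lies at its high-coordinate end, near 148.119 Mb for Cdx2 and near 61.196 Mb for Cdx1.

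The 250 bases before the start of Cdx2 and of Pdx1 are shown because HNF4A had a high-scoring peak at the Cdx2 start and H3K4me2 was called over more nucleosomes at Pdx1 in lists lacking Cdx2. They are RefSeq sequences of GRCm38.p6, a later build than that of the lists, and positions of these builds are not interchangeable. The Cdx2 promoter is at chr5:147307250-147307499 on the minus strand and the Pdx1 promoter at chr5:147269847-147270096 on the plus strand. Of 3 genes looked up in the promoter table (Cdx2, Cdx1 and Pdx1), 2 matched, and that of Cdx1 is not shown. Both are printed from 5′ to 3′.
Cdx2: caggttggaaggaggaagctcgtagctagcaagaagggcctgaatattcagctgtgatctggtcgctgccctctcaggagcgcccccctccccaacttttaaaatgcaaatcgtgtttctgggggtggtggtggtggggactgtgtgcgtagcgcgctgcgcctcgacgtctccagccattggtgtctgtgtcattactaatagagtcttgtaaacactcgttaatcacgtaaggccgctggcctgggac
Pdx1: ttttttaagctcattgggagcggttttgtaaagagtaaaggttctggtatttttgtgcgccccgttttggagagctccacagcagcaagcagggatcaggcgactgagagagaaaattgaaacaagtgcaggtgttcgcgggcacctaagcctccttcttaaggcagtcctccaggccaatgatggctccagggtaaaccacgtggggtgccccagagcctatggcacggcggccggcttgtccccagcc
Neither sequence holds TTTAT, a core bound by CDX proteins, or CAAAG, a core bound by HNF4 proteins, on either strand. Over 32851 promoters of the same length, 37.3% hold the first and 48.6% the second, so most promoters of this length lack each. The G and C content was 55.2% for Cdx2 and 54.8% for Pdx1, with 13 and 10 CG dinucleotides, against medians of 52.4% and 6 over all promoters.

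HNF4A had called peaks at both ends of Cdx2. In Cdx2 knockout 3 HNF4A peaks were called in the locus, and in wild type also 3. At the gene's end, Cdx2 knockout had narrow peaks at chr5:148110520-148110817 (score 148.11, rank 1985 of 9676) and at chr5:148111172-148111459 (score 80.68, rank 4890). Both lay within or across the edge of a single wild-type peak at chr5:148110558-148111820, 1263 bp wide (score 446.64, rank 998 of 22376, among the top 4.46% of its list). At the gene's start, Cdx2 knockout had a peak at chr5:148118905-148119215 (score 81.36, rank 4810). It lay inside the wild-type peak at chr5:148118553-148119329, 777 bp wide (score 413.37, rank 1127, top 5.04%). HNF4A thus had a called peak at both ends of the gene in Cdx2 knockout and in wild type. Peak scores depend on depth and on the caller's settings, and ranks in lists of unequal length show no change, so none is read from these values.

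A weaker wild-type HNF4A peak upstream of the start, at chr5:148121974-148122277 (score 69.14, rank 13635), had no peak over it in Cdx2 knockout. Of the 3 wild-type peaks, 2 were therefore called again, against a background of 30.1% over all 22376 wild-type peaks. All 3 knockout peaks overlapped a wild-type one, against a background of 70.4% over the knockout list. With 3 peaks these counts describe the locus only.

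CDX2 was called at its own gene in wild-type library 1 only. That library had 3 peaks in the locus, which lay between the top 27.7% and the top 72.1% of its list of 12121. The peak upstream of the Cdx2 start, at chr5:148120659-148121323, had a score of 92.49 (rank 3361, top 27.7%), and its centre was 2050 bp from that of the HNF4A peak at the start. The peak at the gene's end, at chr5:148111005-148111600 (score 59.21, rank 8734, top 72.1%), lay wholly inside the wide wild-type HNF4A peak, 113 bp from its centre. A further peak at chr5:148075677-148076210 (score 64.23, rank 7360, top 60.7%) lay on the far side of Pdx1, away from Cdx2. None of the 3 was called in wild-type library 2 or in Hnf4a knockout, so self-binding of CDX2 at Cdx2 rests on 1 library.

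Absence from the other lists is common in this factor's data. Of all peaks of wild-type library 1, 8.60% were overlapped in Hnf4a knockout and 13.1% in wild-type library 2. The Hnf4a knockout list was also shorter, with 5768 peaks, against 12121 and 7441 in wild-type libraries 1 and 2. The count of 0 in Hnf4a knockout thus does not set the locus apart from the rest of the list. Of the 3 peaks of library 1, 1 was overlapped by an HNF4A wild-type peak, against a background of 26.4%. Of the 3 HNF4A wild-type peaks, 1 was overlapped by library 1, against a background of 15.5%, and 0 by library 2, against 3.98%.

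**Figure D1:**
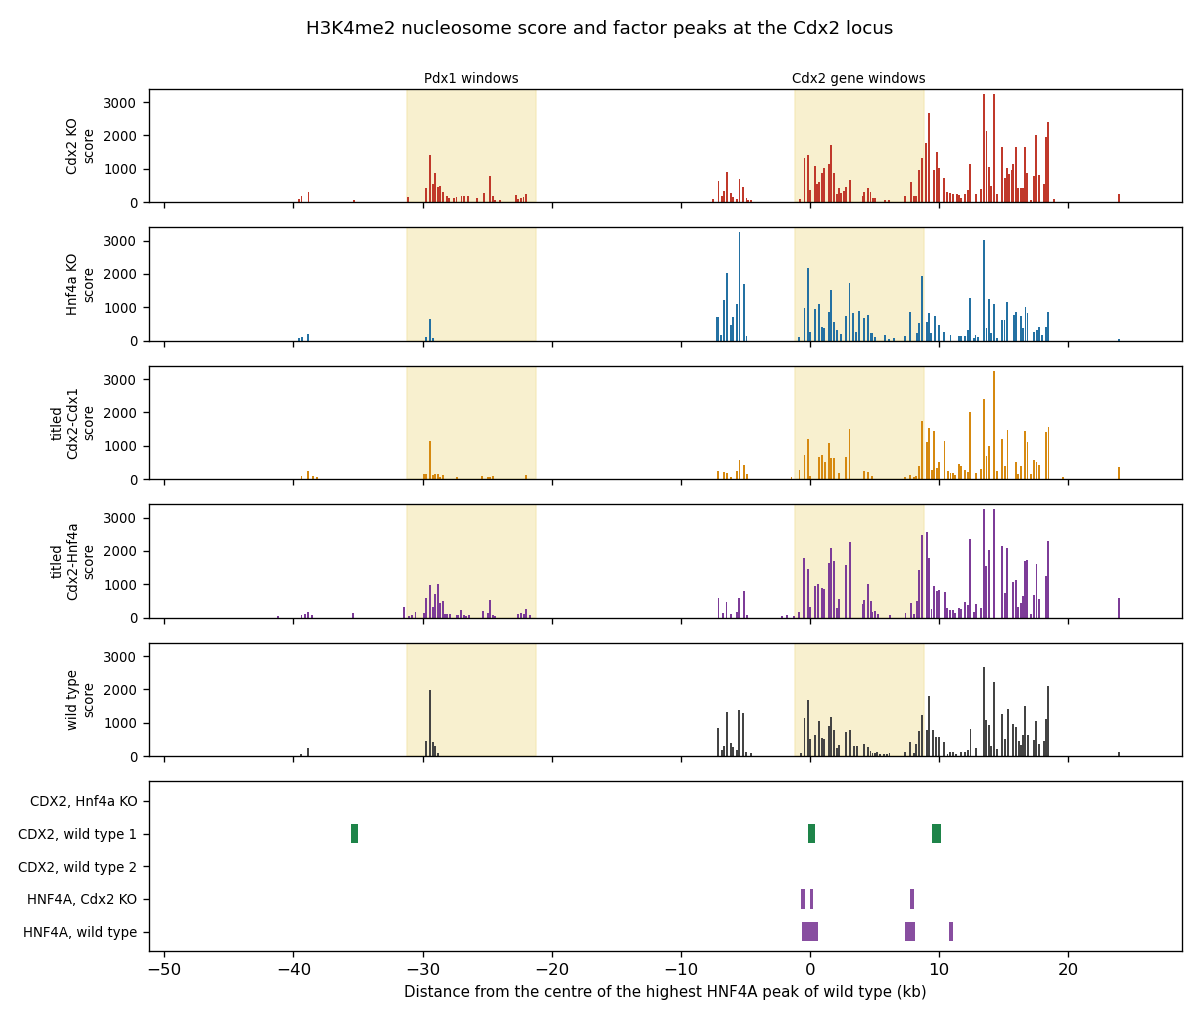
H3K4me2 nucleosome score (10 times −log10 p, y axis) and called factor peaks along the Cdx2 locus, against distance from the centre of the highest wild-type HNF4A peak in kb. Each row is 1 library, each bar 1 called nucleosome, and coloured boxes in the lowest row are peaks. Nucleosomes fill the Pdx1 windows (shaded, left) in Cdx2 knockout and in the library titled Cdx2-Hnf4a, while 3 and 5 were called there in Hnf4a knockout and wild type.

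At Cdx1, both factors met at one place near the gene's end. HNF4A had peaks there at chr18:61177679-61178069 in Cdx2 knockout (score 148.15, rank 1984 of 9676, top 20.5%) and at chr18:61177602-61178225 in wild type (score 180.51, rank 4269 of 22376, top 19.1%). CDX2 had peaks there in both wild-type libraries, at chr18:61177595-61178393 in library 1 (score 119.94, top 15.8%) and at chr18:61177644-61178079 in library 2 (score 71.11, rank 1532 of 7441, top 20.6%). The centres of the CDX2 peaks of libraries 1 and 2 were 80 and 52 bp from that of the wild-type HNF4A peak. Of the 5 places with a wild-type CDX2 peak at either locus, this was the one that both libraries called. The background of such sharing was 13.1% of the peaks of library 1 and 21.4% of those of library 2. The share of CDX2 peaks overlapped by wild-type HNF4A was 26.4% in library 1 and 11.8% in library 2 over the whole lists.

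CDX2 library 1 had a second and higher peak beyond the Cdx1 start, at chr18:61198802-61199941, 1140 bp wide (score 153.49, rank 1067, top 8.80%). It was the highest-scoring CDX2 peak of either locus, and no other list overlapped it. Hnf4a knockout had no CDX2 peak in the Cdx1 locus. The backgrounds for a wild-type peak to be overlapped there were 8.60% for library 1 and 11.6% for library 2, so most wild-type peaks had no peak over them there. Cdx2 knockout had 1 further HNF4A peak, at chr18:61202641-61202797, which was near the floor of its list (score 50.85, rank 9404) and had none over it in wild type. At the shared place, HNF4A was therefore called in Cdx2 knockout and in wild type, and CDX2 in both wild-type libraries.

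Around most of these peaks, marked nucleosomes were called in every list. Within 1 kb of the centre of the wild-type HNF4A peak at the Cdx2 start there were 6 in Cdx2 knockout, 5 in Hnf4a knockout, 6 in the library titled Cdx2-Cdx1, 6 in the library titled Cdx2-Hnf4a and 6 in wild type. Around the CDX2 peak upstream of that start there were 7 in Cdx2 knockout, 6 in Hnf4a knockout, 8 in the library titled Cdx2-Cdx1, 8 in the library titled Cdx2-Hnf4a and 7 in wild type. Around the wild-type HNF4A peak near the Cdx1 end there were 5 in Cdx2 knockout and 6 in each of the other 4 lists. Around the CDX2 peak beyond the Cdx1 start there were 5 in Cdx2 knockout, 4 in Hnf4a knockout, 6 in the library titled Cdx2-Cdx1, 6 in the library titled Cdx2-Hnf4a and 6 in wild type. At these 4 places the lists differed by at most 2 nucleosomes. The CDX2 peak at the Cdx2 end had 9 in Cdx2 knockout, 7 in Hnf4a knockout, 6 in the library titled Cdx2-Cdx1, 8 in the library titled Cdx2-Hnf4a and 8 in wild type. The weaker wild-type HNF4A peak upstream of Cdx2 had 8 in Cdx2 knockout, 5 in Hnf4a knockout, 8 in the library titled Cdx2-Cdx1, 8 in the library titled Cdx2-Hnf4a and 7 in wild type. The CDX2 peak on the far side of Pdx1 was the exception, with 1 nucleosome or none in each list.

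The Cdx2 gene carried H3K4me2 also in the lists lacking Cdx2. In the 10 kb around the gene (chr5:148110001-148120000), 32 nucleosomes were called in Cdx2 knockout, 31 in Hnf4a knockout, 22 in the library titled Cdx2-Cdx1, 29 in the library titled Cdx2-Hnf4a and 33 in wild type. Scaled by the total of each list, the ratio to wild type was 0.927 in Cdx2 knockout (95% interval 0.552 to 1.55) and 0.921 in Hnf4a knockout (0.546 to 1.55). It was 0.580 in the library titled Cdx2-Cdx1 (0.322 to 1.03) and 0.782 in the library titled Cdx2-Hnf4a (0.458 to 1.33). Every interval included 1, so no difference was detectable at this number of nucleosomes. Each group has 1 library, all 4 ratios share 1 wild-type list, and the intervals are exact binomial ones that cover counting error only. The files do not tell fewer marked cells from less mark per cell.

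The lower count in the library titled Cdx2-Cdx1 came mostly from the side of the gene's start. The 5 kb window at chr5:148110001-148115000 held 18 nucleosomes in Cdx2 knockout, 18 in Hnf4a knockout, 13 in the library titled Cdx2-Cdx1, 15 in the library titled Cdx2-Hnf4a and 17 in wild type. The next window, at chr5:148115001-148120000, held 14 in Cdx2 knockout, 13 in Hnf4a knockout, 9 in the library titled Cdx2-Cdx1, 14 in the library titled Cdx2-Hnf4a and 16 in wild type. In the library titled Cdx2-Cdx1, with counts scaled by list totals, it was 1 of 7 windows of the locus at least 2-fold lower than wild type. The background was 10.9% over all windows with 3 or more wild-type nucleosomes. The unscaled counts do not reach 2-fold, and by summed score this window was not 2-fold lower. A run of 6 neighbouring wild-type nucleosomes there, at chr5:148116181-148117391, had no call in that library. Their wild-type scores were low, 60.5 to 130.3, where the median of the wild-type list was 242. By scaled count, no window of the locus was 2-fold lower in Cdx2 knockout, Hnf4a knockout or the library titled Cdx2-Hnf4a, where the backgrounds were 9.89%, 6.57% and 16.5%.

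A short stretch inside Cdx2 carried no nucleosome in any of the 3 lists lacking Cdx2. It was picked as the stretch between neighbouring Cdx2 knockout calls inside the gene that held the most wild-type calls. The choice was made after values were seen, so its counts in every list are a description. In the 930 bp at chr5:148114301-148115231, 0 were called in Cdx2 knockout, 3 in Hnf4a knockout, 0 in the library titled Cdx2-Cdx1, 0 in the library titled Cdx2-Hnf4a and 2 in wild type. The 3 of Hnf4a knockout had scores of 246.3 to 886.3 and the 2 of wild type had 311.0 each. A nucleosome was called near each edge of the stretch in every list. On the gene's end side the neighbour scored 650.3 in Cdx2 knockout, 1735.3 in Hnf4a knockout, 1514.0 in the library titled Cdx2-Cdx1, 2257.0 in the library titled Cdx2-Hnf4a and 794.7 in wild type. The longest gap without a call that reached into the stretch was 930 bp in Cdx2 knockout, 280 bp in Hnf4a knockout, 1040 bp in the library titled Cdx2-Cdx1, 920 bp in the library titled Cdx2-Hnf4a and 470 bp in wild type. The gap thus ran across the same place in all 3 lists lacking Cdx2.

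The pattern is not rare. Over the whole wild-type list, 5.17% of nucleosomes were called in Hnf4a knockout and in none of the 3 lists lacking Cdx2. In the Cdx2 locus it was 2 of 89, or 2.25%, and in the Cdx1 locus 3 of 61, or 4.92%. Whether the stretch lies in the deleted part of the gene was not tested, as the sources used here do not place it.

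**Figure D2:**
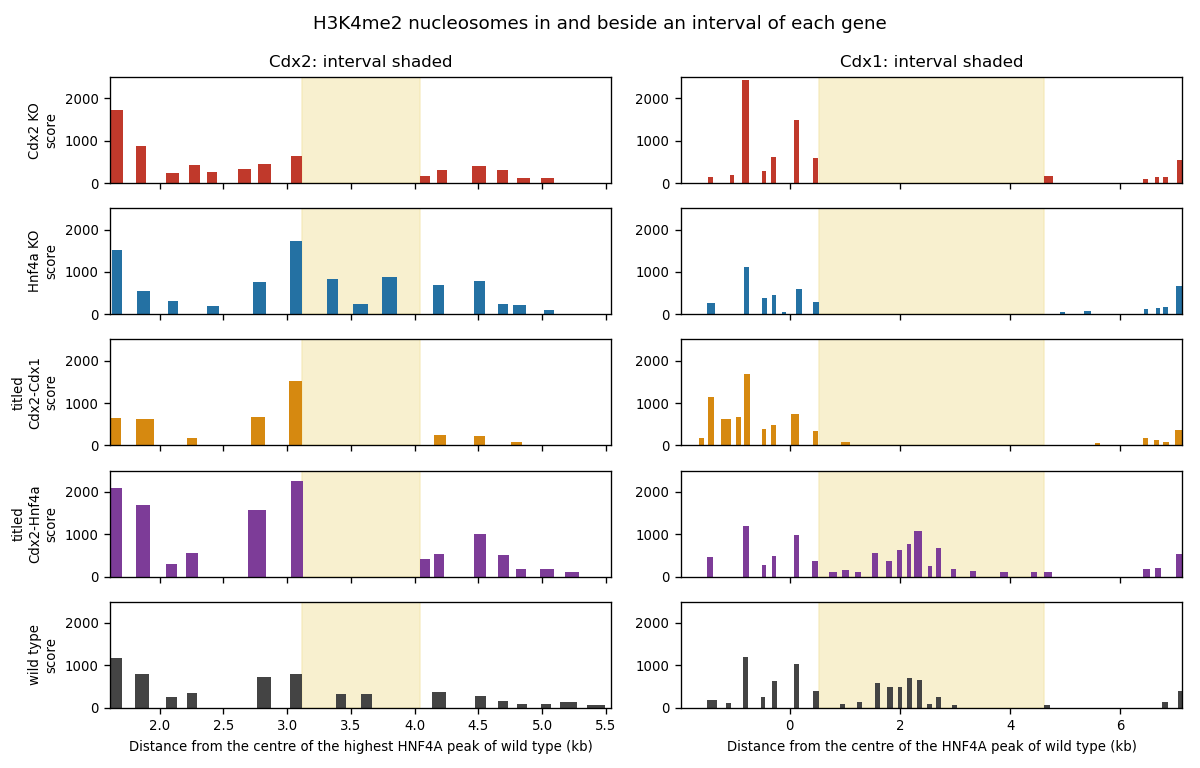
H3K4me2 nucleosome score (10 times −log10 p, y axis) in and beside a stretch of Cdx2 (left) and of Cdx1 (right), against distance in kb from the centre of the highest wild-type HNF4A peak of the locus. Each row is 1 library and each bar 1 called nucleosome. The shaded Cdx2 stretch is empty in the 3 lists lacking Cdx2, and the shaded Cdx1 stretch holds 14 nucleosomes in the library titled Cdx2-Hnf4a and 10 in wild type, against 0 or 1 in the others.

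The densest H3K4me2 of the locus lay upstream of the Cdx2 start, toward Urad, and it was present in every list. At chr5:148120001-148130000 there were 42 nucleosomes in Cdx2 knockout, 36 in Hnf4a knockout, 37 in the library titled Cdx2-Cdx1, 39 in the library titled Cdx2-Hnf4a and 37 in wild type. Scaled ratios to wild type were between 0.870 and 1.08. The nearer 5 kb held 17 to 21 nucleosomes over the 5 lists and the farther 5 kb held 17 to 23. The highest wild-type nucleosome of the locus, at chr5:148124611-148124711, scored 3250.0 in Cdx2 knockout, 3019.1 in Hnf4a knockout, 2416.5 in the library titled Cdx2-Cdx1, 3250.0 in the library titled Cdx2-Hnf4a and 2679.0 in wild type. It was first or second among the nucleosomes of the locus in all 5 lists, and 3250 is the ceiling of the score. The next, at chr5:148125401-148125501, scored 3250.0 in Cdx2 knockout, 1109.2 in Hnf4a knockout, 3250.0 in the library titled Cdx2-Cdx1, 3250.0 in the library titled Cdx2-Hnf4a and 2211.1 in wild type. It was among the 3 highest of the locus in every list but that of Hnf4a knockout.

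The third place differed between lists. It was at chr5:148120341-148120441 in Cdx2 knockout (score 2680.7), at chr5:148123561-148123661 in the library titled Cdx2-Cdx1 (2022.2), at chr5:148120161-148120291 in the library titled Cdx2-Hnf4a (2576.1) and at chr5:148129611-148129701 in wild type (2106.2). All 4 lay upstream of the Cdx2 start. In Hnf4a knockout it was at chr5:148111001-148111081 (2175.3), by the gene's end and inside the wide wild-type HNF4A peak.

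A smaller cluster lay between Cdx2 and Pdx1, and in Hnf4a knockout it held the highest nucleosome of the locus. Counts at chr5:148100001-148110000 were 13 in Cdx2 knockout, 11 in Hnf4a knockout, 9 in the library titled Cdx2-Cdx1, 11 in the library titled Cdx2-Hnf4a and 11 in wild type, so the number of nucleosomes lay between 9 and 13. The nucleosome at chr5:148105681-148105771 scored 690.7 in Cdx2 knockout, 3250.0 in Hnf4a knockout, 571.8 in the library titled Cdx2-Cdx1, 603.5 in the library titled Cdx2-Hnf4a and 1385.0 in wild type. Its neighbour at chr5:148104691-148104781 scored 906.9 in Cdx2 knockout, 2034.7 in Hnf4a knockout, 196.6 in the library titled Cdx2-Cdx1, 460.4 in the library titled Cdx2-Hnf4a and 1329.0 in wild type. For both, Hnf4a knockout was highest, wild type second, and the 3 lists lacking Cdx2 lowest. Of the 11 wild-type nucleosomes of this stretch, 5 had that order and 6 did not. Hnf4a knockout was highest at 7 of the 11, wild type at 3 and the library titled Cdx2-Cdx1 at 1. At chr5:148104031-148104131, for example, the score was 639.3 in Cdx2 knockout, 715.2 in Hnf4a knockout, 256.5 in the library titled Cdx2-Cdx1, 580.8 in the library titled Cdx2-Hnf4a and 852.9 in wild type.

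The summed score of the 10 kb had the same order as those 2 nucleosomes. As a share of the summed score of the whole list, it was 0.570 times the wild-type share in Cdx2 knockout, 2.17 times in Hnf4a knockout, 0.340 times in the library titled Cdx2-Cdx1 and 0.428 times in the library titled Cdx2-Hnf4a. In single 5 kb windows of 1 list against wild type, 2-fold differences in summed score are frequent over the genome. How frequent the order over all lists is was not tested. By summed score, 1 of the 7 windows of the Cdx2 locus with 3 or more wild-type nucleosomes was at least 2-fold lower in Cdx2 knockout, against a background of 13.4%. It was 1 of 7 in Hnf4a knockout, against 6.44%, 2 of 7 in the library titled Cdx2-Cdx1, against 16.8%, and 2 of 7 in the library titled Cdx2-Hnf4a, against 22.3%. At least 2-fold higher were 1 of 9 in Cdx2 knockout, against 13.9%, 2 of 8 in Hnf4a knockout, against 9.65%, 1 of 9 in the library titled Cdx2-Cdx1, against 23.0%, and 1 of 9 in the library titled Cdx2-Hnf4a, against 25.4%. The 2 higher windows of Hnf4a knockout were those between Cdx2 and Pdx1. No factor peak was called in this 10 kb in any list. The stretch was singled out after its values were seen, and a summed score moves with depth as well as with the mark.

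At Pdx1, more H3K4me2 nucleosomes were called in all 3 lists lacking Cdx2 than in wild type or Hnf4a knockout. The 10 kb at chr5:148080001-148090000 held 26 in Cdx2 knockout, 3 in Hnf4a knockout, 14 in the library titled Cdx2-Cdx1, 30 in the library titled Cdx2-Hnf4a and 5 in wild type. The scaled ratio to wild type was 4.97 in Cdx2 knockout (95% interval 1.88 to 16.6) and 5.34 in the library titled Cdx2-Hnf4a (2.05 to 17.6), and neither interval included 1. It was 2.44 in the library titled Cdx2-Cdx1 (0.830 to 8.65) and 0.588 in Hnf4a knockout (0.0914 to 3.02), and both intervals included 1. The stretch was chosen after its counts were seen, and the intervals treat neighbouring calls of 1 library as independent. They therefore describe these counts and test no difference. By summed score the ratios were 2.22 in Cdx2 knockout, 0.295 in Hnf4a knockout, 0.809 in the library titled Cdx2-Cdx1 and 2.05 in the library titled Cdx2-Hnf4a. Counts and scores of the library titled Cdx2-Cdx1 thus lay on different sides of wild type.

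The longest runs of added nucleosomes lay on the Cdx2 side of those seen in wild type. Nucleosomes not called in wild type made an unbroken run of 20 in Cdx2 knockout (chr5:148082491-148089281, scores 64.8 to 788.1). The library titled Cdx2-Hnf4a had a run of 21 (chr5:148082521-148089521, 54.2 to 519.8), and the library titled Cdx2-Cdx1 a run of 7 (chr5:148082501-148086671, 55.4 to 135.4). On the other side, the library titled Cdx2-Hnf4a had a further run of 5 (chr5:148079711-148081321, 58.2 to 326.6). Runs of 8 or more took up 0.403% of all nucleosomes of the Cdx2 knockout list, 1.12% of the library titled Cdx2-Cdx1 and 2.39% of the library titled Cdx2-Hnf4a. In Hnf4a knockout it was 0.121%, and neither locus had such a run. The window with the wild-type calls, at chr5:148080001-148085000, held 15 nucleosomes in Cdx2 knockout, 3 in Hnf4a knockout, 9 in the library titled Cdx2-Cdx1, 20 in the library titled Cdx2-Hnf4a and 5 in wild type. In the outer 5 kb window, at chr5:148085001-148090000, there were 11 in Cdx2 knockout, 0 in Hnf4a knockout, 5 in the library titled Cdx2-Cdx1, 10 in the library titled Cdx2-Hnf4a and 0 in wild type.

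The highest of the added nucleosomes, at chr5:148086361-148086471, scored 788.1 in Cdx2 knockout, 78.4 in the library titled Cdx2-Cdx1 and 519.8 in the library titled Cdx2-Hnf4a, and was not called in Hnf4a knockout or wild type. The 5 wild-type nucleosomes of Pdx1 did not all differ in 1 direction. The strongest, at chr5:148081731-148081841, scored 1400.7 in Cdx2 knockout, 652.2 in Hnf4a knockout, 1156.3 in the library titled Cdx2-Cdx1, 991.5 in the library titled Cdx2-Hnf4a and 1983.4 in wild type, where it was highest. The last on the side of the added run, at chr5:148082321-148082401, scored 457.4 in Cdx2 knockout, 158.1 in the library titled Cdx2-Cdx1, 1008.4 in the library titled Cdx2-Hnf4a and 105.6 in wild type, and was not called in Hnf4a knockout. Wild type was the lowest of the 4 lists with a call for that nucleosome.

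By scaled count, both Pdx1 windows were at least 2-fold higher in Cdx2 knockout, 2 of the 9 windows of the Cdx2 locus with 3 or more nucleosomes, against a background of 9.03%. Both were also higher in the library titled Cdx2-Hnf4a, again 2 of 9, against 18.9%. In the library titled Cdx2-Cdx1 it was the outer one, 1 of 9, against 17.1%, and in Hnf4a knockout none of 8, against 5.88%. No other window of the locus was 2-fold higher by count in any list. By summed score, the outer one alone of the Pdx1 windows was 2-fold higher, in Cdx2 knockout and both double knockouts. The windows between Cdx2 and Pdx1 were higher by that measure in Hnf4a knockout. Over the whole Cdx2 knockout list, 5.92% of nucleosomes were called in both double knockouts and not in Hnf4a knockout or wild type, and in the Cdx2 locus it was 8 of 119, or 6.72%, which is near that background. The nearest CDX2 peak, that of wild-type library 1 on the far side of Pdx1, was 1 of the 3 named above, and wild-type library 2 had none there. The Pdx1 windows were singled out after their values were seen.

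**Figure D3:**
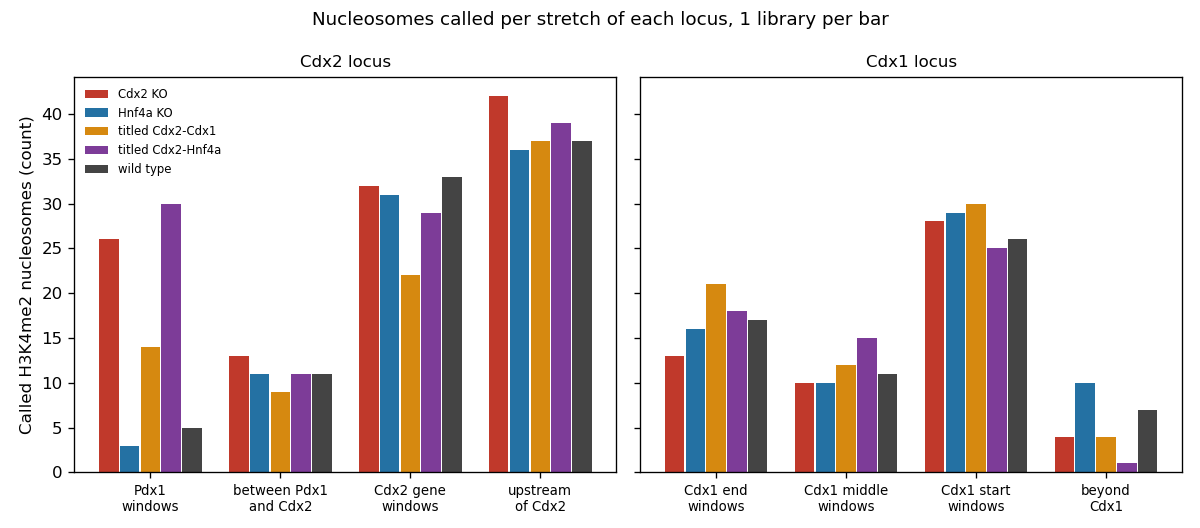
Number of H3K4me2 nucleosomes called (y axis) in 10 kb stretches of the Cdx2 locus and of the Cdx1 locus (20 kb for the one beyond Cdx1), 1 bar per library with no replicate. The Pdx1 windows hold 26 in Cdx2 knockout, 14 in the library titled Cdx2-Cdx1 and 30 in the library titled Cdx2-Hnf4a, against 5 in wild type, while Cdx2 itself holds 22 to 33 and the stretch upstream of it 36 to 42 over the 5 lists.

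Around the start of Cdx1, H3K4me2 was called in similar numbers in all 5 lists. The 10 kb at chr18:61190001-61200000 held 28 nucleosomes in Cdx2 knockout, 29 in Hnf4a knockout, 30 in the library titled Cdx2-Cdx1, 25 in the library titled Cdx2-Hnf4a and 26 in wild type. Scaled ratios were between 0.855 and 1.09, and each interval included 1. The window over the start, at chr18:61195001-61200000, held 15 or 16 in every list, and the one before it, at chr18:61190001-61195000, held 10 to 15. The highest wild-type nucleosome, at chr18:61194401-61194481, scored 2446.1 in Cdx2 knockout, 1237.7 in Hnf4a knockout, 1532.4 in the library titled Cdx2-Cdx1, 1292.7 in the library titled Cdx2-Hnf4a and 1941.3 in wild type. Its neighbour at chr18:61194831-61194921 scored 1461.6 in Cdx2 knockout, 1406.6 in Hnf4a knockout, 2136.3 in the library titled Cdx2-Cdx1, 1469.8 in the library titled Cdx2-Hnf4a and 1846.9 in wild type. One of these neighbours was among the 3 highest nucleosomes of the locus in each list. Other high nucleosomes of single lists lay beside them, such as chr18:61194021-61194131 in the library titled Cdx2-Cdx1 (2086.3).

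Beyond the gene's end, the nucleosome at chr18:61173731-61173821 scored 2318.2 in Cdx2 knockout, 435.0 in Hnf4a knockout, 469.7 in the library titled Cdx2-Cdx1, 1581.1 in the library titled Cdx2-Hnf4a and 1827.2 in wild type. It was among the 3 highest of the locus in Cdx2 knockout, the library titled Cdx2-Hnf4a and wild type, and not in the other 2. Its window, at chr18:61170001-61175000, held 6 nucleosomes in Cdx2 knockout, 9 in Hnf4a knockout, 10 in the library titled Cdx2-Cdx1, 6 in the library titled Cdx2-Hnf4a and 5 in wild type, so the lists with the lower score had more calls there. Over the whole locus the counts were 55 in Cdx2 knockout, 65 in Hnf4a knockout, 67 in the library titled Cdx2-Cdx1, 59 in the library titled Cdx2-Hnf4a and 61 in wild type. The 20 kb of the locus on the Slc6a7 side held no nucleosome in any list.

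**Figure D4:**
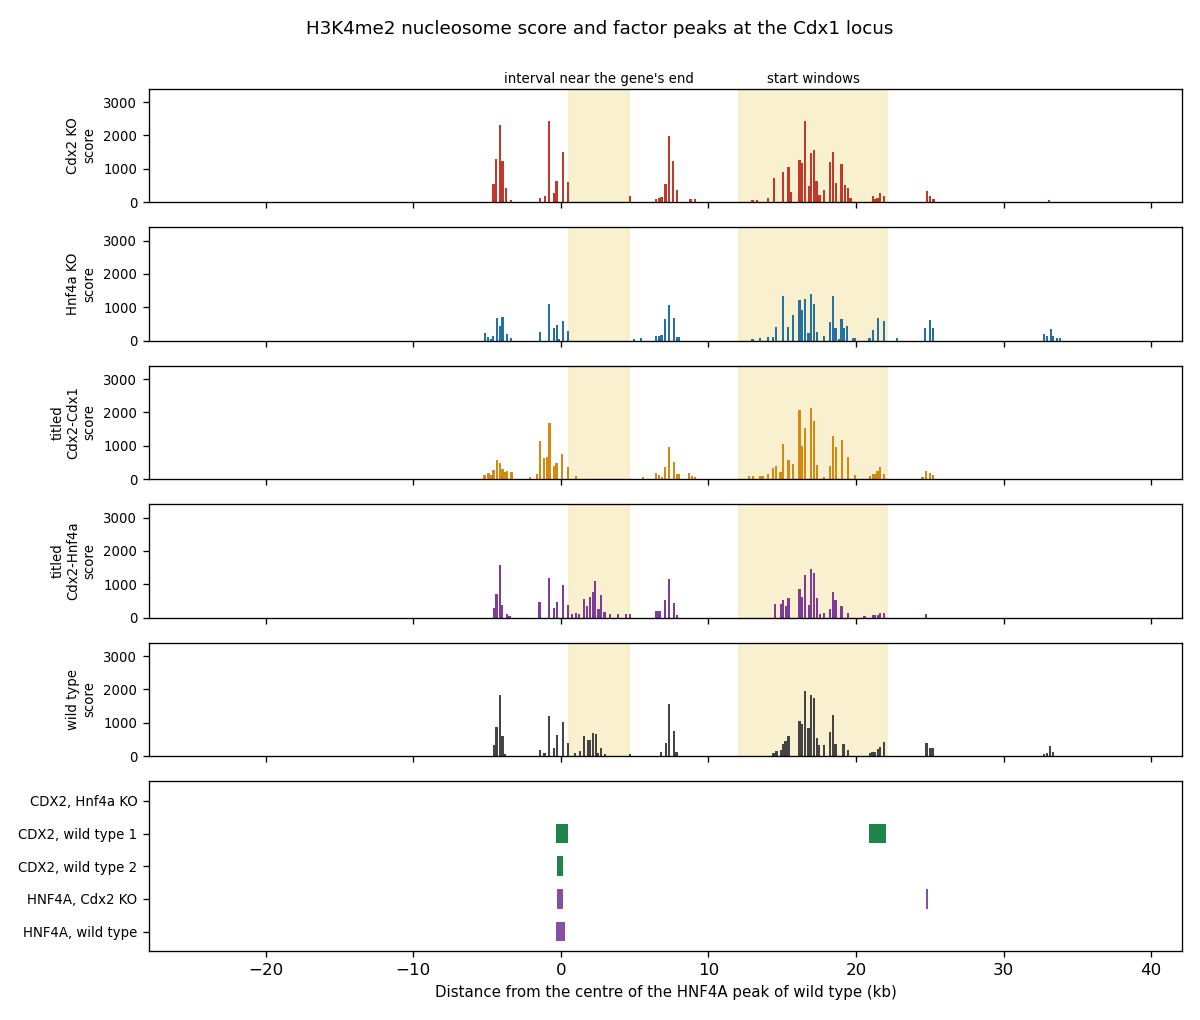
H3K4me2 nucleosome score (10 times −log10 p, y axis) and called factor peaks along the Cdx1 locus, against distance in kb from the centre of the wild-type HNF4A peak. Each row is 1 library, each bar 1 called nucleosome, and boxes in the lowest row are peaks. The start windows (shaded, right) hold 25 to 30 nucleosomes in every list, and the stretch near the gene's end (shaded, left) is filled in the library titled Cdx2-Hnf4a and in wild type.

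Beside the shared CDX2 and HNF4A peak near the Cdx1 end, a block of marked nucleosomes was present in some lists and missing from others. It was chosen after its values were seen, and its lower edge is not exactly that of the Cdx2 knockout gap (chr18:61178431-61182531). Its counts in every list are therefore a description. In the 4090 bp at chr18:61178441-61182531 there were 0 nucleosomes in Cdx2 knockout, 0 in Hnf4a knockout, 1 in the library titled Cdx2-Cdx1, 14 in the library titled Cdx2-Hnf4a and 10 in wild type. The 1 of the library titled Cdx2-Cdx1 scored 80.9, those of the library titled Cdx2-Hnf4a 100.3 to 1085.6 and those of wild type 60.0 to 694.6. The block's highest wild-type nucleosome, at chr18:61180041-61180131, scored 694.6 there and had a counterpart of 766.1 in the library titled Cdx2-Hnf4a.

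On the side of the factor peak, the nucleosome just outside the block was called in all 5 lists. It scored 589.8 in Cdx2 knockout, 279.0 in Hnf4a knockout, 350.8 in the library titled Cdx2-Cdx1, 372.9 in the library titled Cdx2-Hnf4a and 397.4 in wild type. On the other side, the neighbour at chr18:61182531-61182641 scored 174.4 in Cdx2 knockout, 118.5 in the library titled Cdx2-Hnf4a and 70.7 in wild type. At a score of 52 or more it had no call in Hnf4a knockout or in the library titled Cdx2-Cdx1, so the emptiness of these lists reached past the block. The longest gap without a call that reached into the block was 4100 bp in Cdx2 knockout, 4380 bp in Hnf4a knockout, 4440 bp in the library titled Cdx2-Cdx1, 430 bp in the library titled Cdx2-Hnf4a and 1590 bp in wild type. At this score the block was thus not called, but for 1 nucleosome, in the lists labelled Cdx2 knockout and Hnf4a knockout and in the library titled Cdx2-Cdx1. The genotype of none of these libraries could be checked in the lists, that of Hnf4a knockout included. For each double knockout, some labels name Cdx1 as the second deleted gene and others name Hnf4a. Whether the block lies in a deleted part of Cdx1 was not tested.

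Hnf4a knockout was less empty than the score of 52 makes it. Its deposited list reached down to a score of 1.7, and 7 nucleosomes of 7.4 to 46.6 lay in the block. The other 4 lists reached down to between 50.1 and 51.3 and could not show calls so weak. Without the minimum, counts in the block were 0 in Cdx2 knockout, 7 in Hnf4a knockout, 2 in the library titled Cdx2-Cdx1, 14 in the library titled Cdx2-Hnf4a and 10 in wild type. All 7 were below every nucleosome of the block in wild type, where the lowest was 60.0.

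Set against the whole wild-type list, this pattern was uncommon. Of 245431 wild-type nucleosomes, 1.01% were called, at a score of 52 or more, in the library titled Cdx2-Hnf4a and in none of the other 3 knockout lists. In the Cdx1 locus it was 10 of 61, or 16.4%, and in the Cdx2 locus 1 of 89, or 1.12%. Of those 10, 9 followed each other, and this was the 1 run of 8 or more of that kind in the whole wild-type list. Runs of 8 or more wild-type nucleosomes without a call took up 0.414% of the list in Cdx2 knockout, 0.0399% in Hnf4a knockout and 0.440% in the library titled Cdx2-Cdx1. Each of these 3 lists had 1 such run in the Cdx1 locus, that over the block. In the library titled Cdx2-Hnf4a it was 1.97%, with no such run in either locus. Of the 3 lists lacking Cdx2, 2 lack the block and 1 holds it. The combination of lists was looked for after the counts of the block were seen.

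Counts over 5 kb windows hide the block, because its windows also hold the factor peak and the gene's middle. The window at chr18:61175001-61180000 held 7 in Cdx2 knockout, 7 in Hnf4a knockout, 11 in the library titled Cdx2-Cdx1, 12 in the library titled Cdx2-Hnf4a and 12 in wild type. The next, at chr18:61180001-61185000, held 4 in Cdx2 knockout, 6 in Hnf4a knockout, 5 in the library titled Cdx2-Cdx1, 12 in the library titled Cdx2-Hnf4a and 7 in wild type. Neither was 2-fold lower than wild type in any list by count. By count, 1 of the 8 windows of the Cdx1 locus was 2-fold lower in Cdx2 knockout, 0 in Hnf4a knockout, 1 in the library titled Cdx2-Cdx1 and 2 in the library titled Cdx2-Hnf4a, all of them beyond the gene's start. The backgrounds were 9.89% in Cdx2 knockout, 6.57% in Hnf4a knockout, 10.9% in the library titled Cdx2-Cdx1 and 16.5% in the library titled Cdx2-Hnf4a. None of the 6 to 8 windows tested was 2-fold higher in any list, where the backgrounds were 9.03% in Cdx2 knockout, 5.88% in Hnf4a knockout, 17.1% in the library titled Cdx2-Cdx1 and 18.9% in the library titled Cdx2-Hnf4a. By summed score, 2 of 8 windows were at least 2-fold lower in Cdx2 knockout, against a background of 13.4%, and 0 of 8 in Hnf4a knockout, against 6.44%. It was 2 of 8 in the library titled Cdx2-Cdx1, against 16.8%, and 2 of 8 in the library titled Cdx2-Hnf4a, against 22.3%. The second window of the block was among them in Cdx2 knockout and in the library titled Cdx2-Cdx1, while both of the library titled Cdx2-Hnf4a lay beyond the gene's start.

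Taken nucleosome by nucleosome, nearly all wild-type calls of the Cdx2 locus had a call over them in Cdx2 knockout. Of its 89 wild-type nucleosomes, 5 had no overlapping call in Cdx2 knockout (5.62%, 95% interval 1.85 to 12.6), against a background of 21.0% over the whole wild-type list. In Hnf4a knockout 16 had none (18.0%, 10.6 to 27.5), against 21.7%. In the library titled Cdx2-Cdx1 it was 19 (21.3%, 13.4 to 31.3), against 24.5%, and in the library titled Cdx2-Hnf4a 13 (14.6%, 8.01 to 23.7), against 27.3%. The shares in Cdx2 knockout and in the library titled Cdx2-Hnf4a had intervals that lay below the whole-list share, and the other 2 included it. Wild-type nucleosomes of the locus had a median score of 432, against 242 over the whole list, so this background is not matched for score. Whether the score accounts for the lower shares was not tested. The intervals also treat neighbouring calls of 1 library as independent.

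At Cdx1 the shares were near the background. Of 61 wild-type nucleosomes, 17 had no call in Cdx2 knockout (27.9%, 17.1 to 40.8), 18 in Hnf4a knockout (29.5%, 18.5 to 42.6), 17 in the library titled Cdx2-Cdx1 (27.9%, 17.1 to 40.8) and 12 in the library titled Cdx2-Hnf4a (19.7%, 10.6 to 31.8). All 4 intervals included the whole-list share. In the first 3 of these lists, a run of 10 or 11 over the block near the gene's end, its neighbour included in 2 of them, made up most of the missing nucleosomes. Called in all 4 knockout lists were 57 of 89 wild-type nucleosomes of the Cdx2 locus (64.0%) and 31 of 61 of the Cdx1 locus (50.8%), against a background of 54.3%.

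**Figure D5:**
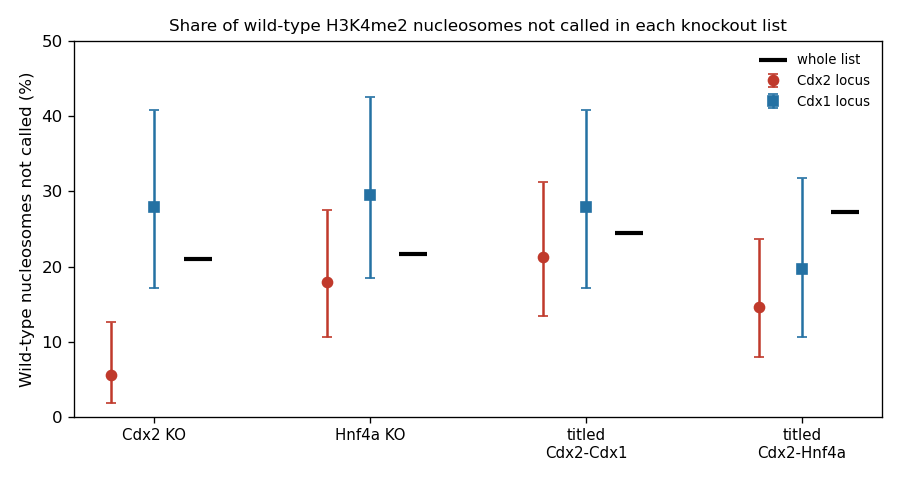
Share of wild-type H3K4me2 nucleosomes with no overlapping call in each knockout list (y axis, %), for the 89 of the Cdx2 locus and the 61 of the Cdx1 locus, with exact 95% binomial intervals for counting error. Black bars are the share over the whole wild-type list. The Cdx2 locus lies lowest in Cdx2 knockout, at 5.62% against 21.0% for the whole list.

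In the other direction, 34 of 119 nucleosomes of the Cdx2 locus in Cdx2 knockout had no overlapping call in wild type (28.6%), against a background of 24.6%. In Hnf4a knockout it was 12 of 85 (14.1%), against 23.1%, in the library titled Cdx2-Cdx1 18 of 88 (20.5%), against 34.1%, and in the library titled Cdx2-Hnf4a 41 of 117 (35.0%), against 35.3%. The Pdx1 run made up 20 of the 34 in Cdx2 knockout and 21 of the 41 in the library titled Cdx2-Hnf4a. At Cdx1 the share was 20.0% in Cdx2 knockout (11 of 55), against 24.6%, and 33.8% in Hnf4a knockout (22 of 65), against 23.1%. It was 34.3% in the library titled Cdx2-Cdx1 (23 of 67), against 34.1%, and 16.9% in the library titled Cdx2-Hnf4a (10 of 59), against 35.3%.

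Distances between the centres of overlapping calls were small, which the required overlap in part fixes in advance. The median distance between centres of overlapping calls at the Cdx2 locus was 5 bp for Cdx2 knockout and 10 bp for each of Hnf4a knockout and both double knockouts, all against wild type. At the Cdx1 locus it was 15 bp for Hnf4a knockout and 10 bp for the other 3. Over the whole lists it was 10 bp for all 4. Neighbouring nucleosomes at most 250 bp apart were spaced by a median of 180 to 198 bp over both loci and all 5 lists, against 185 or 190 bp over the whole lists.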

How the data were processed

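The 10 lists were used as the authors deposited them. In the factor lists each peak has its position and 1 score, and the peak names carry the word MACS, a peak caller. What that score stands for, its control and the aligner are not named by any label or header. Each H3K4me2 list gives called nucleosomes with a score that is 10 times the −log10 of a p-value, per the file headers, up to a ceiling of 3250. Coordinates are of mm9, per the submitters' processing notes. Peak starts are printed counting from 1 and nucleosome positions as the files give them. Read depth is unknown, and the input sample was not analysed here.

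Nucleosomes scoring 52 or more were counted per locus, per 5 kb window and per stretch of windows, and divided by list totals for ratios to wild type. Overlap meant 1 bp or more. A run joined neighbouring nucleosomes at most 2 kb apart. Intervals are exact binomial ones (Clopper-Pearson, 95%) and cover counting error only. With 1 library per group no p-value was computed. All factor peaks were named, with nucleosomes taken mainly from the 3 highest of each list, and stretches, runs and combinations of lists were chosen after their values were seen. The loci, lists and motifs were chosen with earlier results of these data known. Python 3.11.15, numpy 2.4.6, scipy 1.17.1 and matplotlib 3.10.9 were used, and the overlap, run and ratio functions were tested on simulated data. The alternatives were other score minimums, overlaps, scalings and window starts, and leaving out a CDX2 library.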

Additional observations from a re-analysis of the deposited data

How the results depend on the processing

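Of 112 alternative values, 90 kept to the interval or range of the reported one and 22 moved. Every interval of a whole-locus ratio included 1, and most of these ratios lay on both sides of 1 over the alternatives. The library titled Cdx2-Cdx1 at Cdx2 stayed below 1 throughout (0.722 to 0.989), as did the library titled Cdx2-Hnf4a at Cdx1 (0.755 to 0.967). Their main intervals also included 1, so no direction is read from any ratio. For Cdx2 knockout at Cdx1 it was 0.862 by count and 1.04 by summed score. For Hnf4a knockout it was 0.937 by count and 1.15 by summed score at Cdx2, and 1.04 with the minimum and 0.864 without it at Cdx1. For the library titled Cdx2-Cdx1 at Cdx1 it was 0.956 scaled and 1.10 not scaled. For the library titled Cdx2-Hnf4a at Cdx2 it was 1.17 over the whole locus, 0.927 over the gene and 0.921 without the Pdx1 windows. At the Cdx2 locus, the ratio of Cdx2 knockout to wild type was 0.956 over the gene and 5 kb on each side, against 1.28 over the whole locus (0.963 to 1.70), and 1.06 without the Pdx1 windows, a setting added after seeing the data. With the lists as deposited, Hnf4a knockout fell to 0.551 there, against 0.937, since its list alone reaches low scores. An overlap of 73 bp, close to the width of a call, lowered the share of wild-type nucleosomes called again. At the Cdx2 locus it was 75.3% in Cdx2 knockout, 60.7% in Hnf4a knockout, 60.7% in the library titled Cdx2-Cdx1 and 65.2% in the library titled Cdx2-Hnf4a, and at Cdx1 55.7% in Cdx2 knockout, 47.5% in Hnf4a knockout, 52.5% in the library titled Cdx2-Cdx1 and 60.7% in the library titled Cdx2-Hnf4a. With windows shifted by 2500 bp, Cdx1 windows 2-fold lower and higher numbered 2 and 1 in Cdx2 knockout, 1 and 1 in Hnf4a knockout and 2 and 1 in the library titled Cdx2-Cdx1. With no score minimum, Hnf4a knockout had 2 lower windows at Cdx2, and 1 lower and 2 higher at Cdx1. At a peak score of 70 or more, 1 of 3 wild-type CDX2 places was left at the Cdx2 locus. Leaving out 1 wild-type CDX2 library gave 0 to 3 places at Cdx2 and 1 to 2 at Cdx1: without library 1, the Cdx2 locus had 0 and Cdx1 had 1. No paired analysis was possible because each group but wild-type CDX2 has 1 library. The number of calls limits every ratio here, and its relation to depth was not tested.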

Other observations

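Beyond the Cdx1 start, toward Pdgfrb, a small group of marked nucleosomes varied between lists. In the 5 kb window at chr18:61210001-61215000, 1 nucleosome was called in Cdx2 knockout, 6 in Hnf4a knockout, 0 in the library titled Cdx2-Cdx1, 0 in the library titled Cdx2-Hnf4a and 4 in wild type. The 4 wild-type nucleosomes, at chr18:61210611-61211301, scored 69.4 to 290.8. All 3 lists lacking Cdx2 had fewer calls than wild type there and Hnf4a knockout had more. The window was at least 2-fold lower in Cdx2 knockout and in the libraries titled Cdx2-Cdx1 and Cdx2-Hnf4a, against backgrounds of 9.89%, 10.9% and 16.5%. It was not 2-fold higher in Hnf4a knockout. Wild-type nucleosomes called in Hnf4a knockout and in none of these 3 made up 4.92% at Cdx1, against 5.17% over the whole list. Over the 20 kb beyond the Cdx1 start there were 4 in Cdx2 knockout, 10 in Hnf4a knockout, 4 in the library titled Cdx2-Cdx1, 1 in the library titled Cdx2-Hnf4a and 7 in wild type. The scaled ratio to wild type was 0.546 in Cdx2 knockout (95% interval 0.117 to 2.15), 1.40 in Hnf4a knockout (0.481 to 4.34) and 0.497 in the library titled Cdx2-Cdx1 (0.107 to 1.96), and these intervals included 1. It was 0.127 in the library titled Cdx2-Hnf4a (0.00282 to 0.989), and that interval did not include 1. This ratio is of 1 nucleosome against 7, in a stretch chosen after its counts were seen. It is also 1 of many ratios over stretches and lists, so no difference is read from it. In the 5 kb next to the Cdx1 start (chr18:61200001-61205000), which hold the knockout-only HNF4A peak, there were 3 in Cdx2 knockout, 4 in Hnf4a knockout, 4 in the library titled Cdx2-Cdx1, 1 in the library titled Cdx2-Hnf4a and 3 in wild type.

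On the far side of Pdx1, the 20 kb that hold the CDX2 peak of wild-type library 1 had 4 nucleosomes in Cdx2 knockout, 3 in Hnf4a knockout, 4 in the library titled Cdx2-Cdx1, 7 in the library titled Cdx2-Hnf4a and 2 in wild type. Within 1 kb of that CDX2 peak's centre there was 1 in Cdx2 knockout, 0 in Hnf4a knockout, 0 in the library titled Cdx2-Cdx1, 1 in the library titled Cdx2-Hnf4a and 0 in wild type, so this CDX2 peak lay outside the marked stretches. The 10 kb between Pdx1 and the cluster on the Cdx2 side (chr5:148090001-148100000) had no nucleosome in any list.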
